A study of Mus musculus with 36 samples.

Results

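Expression of 10 genes that make, break down, carry or sense retinoic acid was followed in germ cells and supporting cells of the fetal mouse gonad. The genes were taken by symbol: Rdh10, Dhrs3, Aldh1a1, Aldh1a2, Aldh1a3, Cyp26a1, Cyp26b1, Crabp1, Crabp2 and Rarb. All 10 were found among the 19938 genes that the arrays measured with a probe set of 1 annotated symbol, and each had 1 probe set. The series used Affymetrix Mouse Gene 1.0 ST arrays, on which probes along each transcript report its RNA as a log2 expression level. Germ cells are the precursors of sperm and eggs, and supporting cells are the somatic lineage that gives Sertoli cells in a testis and granulosa cells in an ovary. The 12 groups were XY germ cells, XX germ cells, XY supporting cells and XX supporting cells, each sampled 11.5, 12.5 or 13.5 days post coitum (dpc).

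Cells were sorted by fluorescence from pooled gonads of each sex. Germ cells of both sexes were marked by an Oct4 reporter, in progeny of C57BL/6NJ on a mixed background. XY supporting cells at 12.5 and 13.5 dpc were marked through Sox9 and carried Tg(Sox9-cre/ERT2)1Msan/J, with C57BL/6 as their strain. XY supporting cells at 11.5 dpc and XX supporting cells of all stages carried Tg(Sry-EGFP)92Ei, with CD-1 as their strain. Reporter and strain therefore cannot be told apart from cell type in comparisons of germ and supporting cells. In supporting cells they also cannot be told apart from sex at 12.5 and 13.5 dpc or from stage in XY cells. The same holds for the stage change of the supporting cell sex difference. Each group had 3 arrays, except that 2 were used for XX germ cells at 12.5 dpc, and this number limits the precision of every value. Whether the 3 arrays of a group hold RNA of different litters or sorts is not given by the labels. The p-values cover the spread among these arrays and no more, and that spread may be technical. In sorted pools, fewer cells of a type and less RNA per cell cannot be told apart.

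Retinoic acid, a derivative of vitamin A, is made when retinol is oxidised to retinal and retinal is oxidised to the acid. It binds nuclear receptors that switch genes on, and CYP26 enzymes of the cytochrome P450 family break it down. In the mouse fetal gonad it is known for inducing Stra8 as ovarian germ cells enter meiosis, and Cyp26b1 of the testis is known for keeping it away from testicular germ cells.

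Array medians over the genes lay between 6.54 and 7.01. A median of 6 germ cell markers was 10.75 to 11.52 in germ cell arrays and 5.07 to 6.63 in supporting cell arrays. A median of 5 supporting cell markers was 6.51 to 7.19 in germ cell arrays and 9.76 to 11.31 in supporting cell arrays. A median of 4 pregranulosa markers was 6.22 to 7.27 in XY and 9.03 to 10.02 in XX supporting cell arrays. Single markers of this list varied. Fst stood at 6.53 to 8.05 in XY and 11.36 to 12.52 in XX supporting cell arrays, while Foxl2 stayed between 6.02 and 6.82 in supporting cells of both sexes. The third XX germ cell array at 12.5 dpc went against its label, with a germ cell median of 5.20, a supporting cell median of 11.11 and a stromal cell median of 10.29. It was left out, and calls that changed with it kept are given. Within arrays the deposited values fell into interleaved sets of table rows on slightly different scales, whose medians lay 0.02 to 0.75 apart, and results were repeated after these row sets were aligned.

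Averaged over the stages, Aldh1a1 and Aldh1a2 RNA was lower and Crabp1 and Crabp2 RNA higher in germ cells than in supporting cells of both sexes, while Rdh10 had opposite signs in XY and XX gonads. In XY supporting cells Aldh1a1 and Cyp26b1 were higher and Dhrs3, Rdh10 and Aldh1a2 lower than in XX supporting cells at 12.5 and 13.5 dpc. In XY germ cells Crabp1 was lower and Aldh1a1 higher than in XX germ cells at both of these stages. Aldh1a3, Cyp26a1 and Rarb lay within a narrow range in all 12 groups. Between the lowest and the highest group mean, Aldh1a1 spanned 5.66, Dhrs3 3.74, Crabp1 3.60, Aldh1a2 3.09, Crabp2 2.51, Cyp26b1 2.10 and Rdh10 1.80 on the log2 scale. Spans were 0.59 for Aldh1a3, 0.52 for Cyp26a1 and 0.43 for Rarb, where the median gene of the series spanned 0.76. The plot of levels by array shows all values.

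Markers of other cell types moved with some of these groups. A median of 6 stromal markers was 7.24 to 7.47 in XY against 6.42 to 6.95 in XX supporting cells at 12.5 dpc, and 7.12 to 7.38 against 6.56 to 6.78 at 13.5 dpc. The median of 4 steroidogenic markers was 6.98 to 7.59 in XY against 5.44 to 5.56 in XX supporting cells at 13.5 dpc. At 11.5 dpc the supporting cell median was 10.16 to 10.54 in XY against 11.08 to 11.20 in XX supporting cells. Smaller gaps at that stage were in the steroidogenic, erythroid and mesonephric lists. In germ cells at 12.5 dpc the stromal median ran the other way, 6.40 to 6.46 in XY against 6.76 to 7.45 in XX germ cells, and the erythroid median was 6.18 to 6.47 against 5.93 to 6.01. None of these ranges overlapped, and their part in the differences of the 10 genes was not tested.

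**Figure D1:**
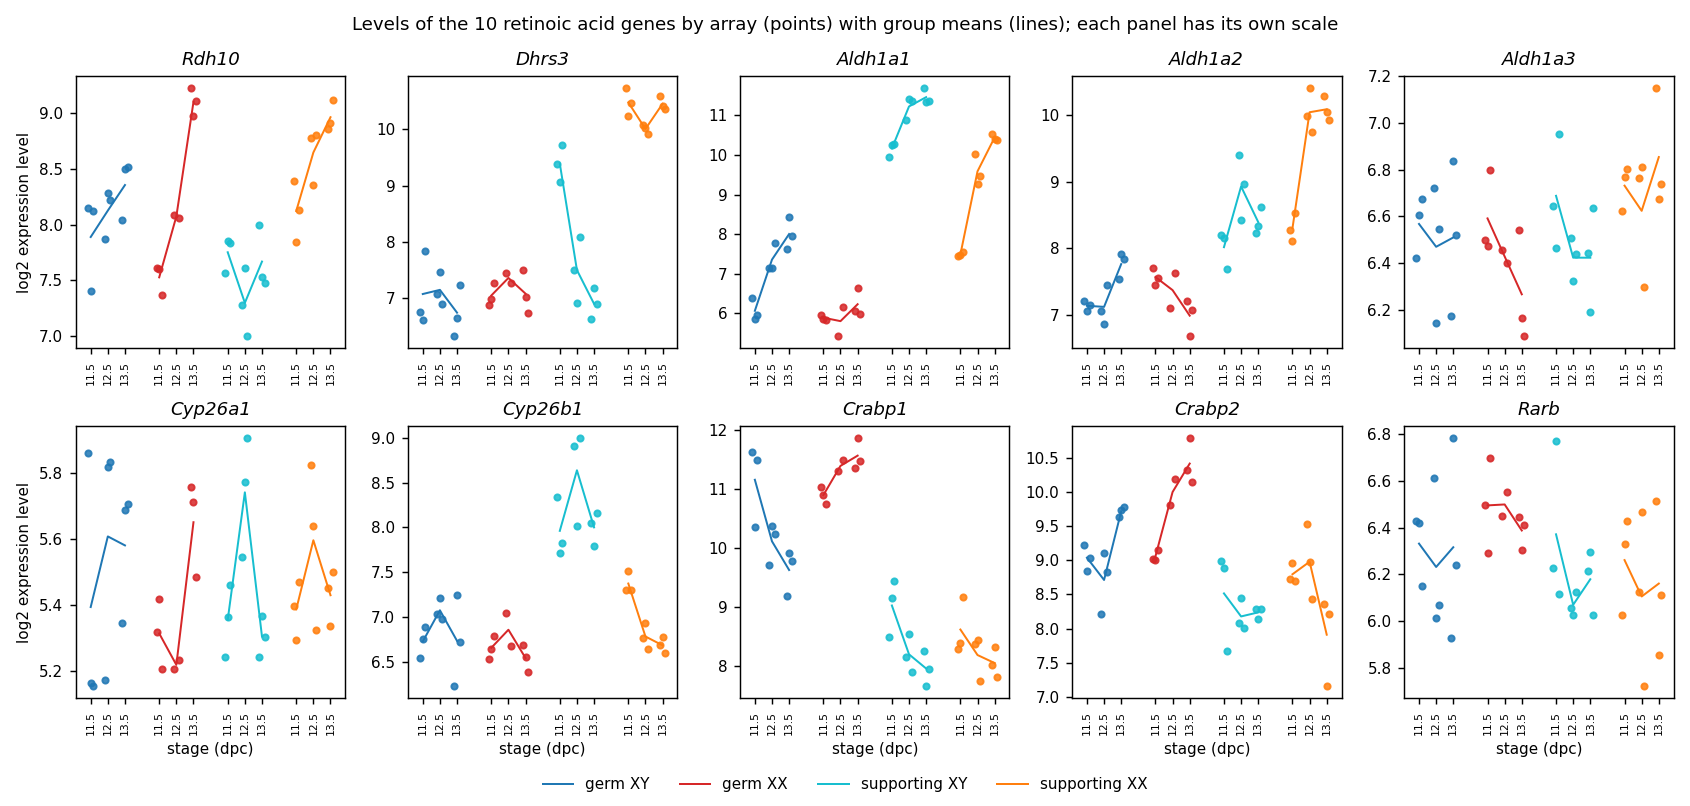
Log2 expression level (vertical axis, own scale per panel) of the 10 genes by stage in dpc (horizontal axis) for XY and XX germ cells and XY and XX supporting cells. Points are arrays and lines join group means. Dhrs3 has an XY minus XX difference of -3.56 in supporting cells at 13.5 dpc, and Crabp1 is above 9 in every germ cell array.

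A gene was counted as changed when its adjusted p was under 0.05 in limma's moderated test, with p-values adjusted over all 19938 genes of a comparison. Differences are in log2 with the standard error (SE) of the fit. Of XY against XX germ cells, 0 of the 10 genes passed at 11.5 dpc, where 0.0251% of all genes did, and 0 of the 10 had an unadjusted p under 0.05. At 12.5 dpc 3 of the 10 passed in germ cells, beside 1.8% of all genes, and at 13.5 dpc 4 of the 10 beside 9.21%. Of XY against XX supporting cells, 2 of the 10 passed at 11.5 dpc, beside 3.32% of all genes. The counts in supporting cells were 6 of the 10 at 12.5 dpc, beside 13.4%, and 5 of the 10 at 13.5 dpc, beside 12.2%. Apart from germ cells at 11.5 dpc, each share of the 10 was above the share of all genes, and with members this few no test was made of that. The 10, like the further pathway genes below, were chosen with earlier results of these data known. Nothing about the pathway is therefore read from such shares, here or below. Median differences over the 10 genes stayed between -0.12 and 0.05 in these comparisons and over all genes between -0.06 and 0.07, and members moved in both directions.

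**Figure D2:**
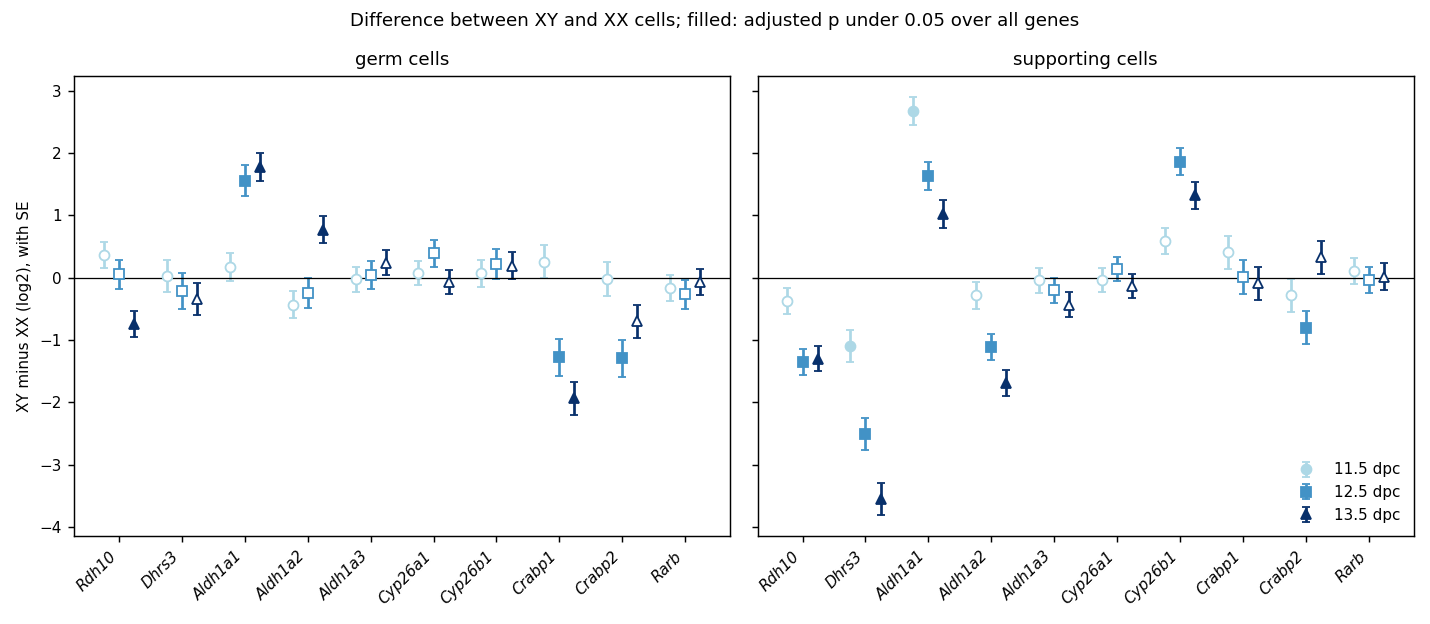
XY minus XX difference in log2 (vertical axis) of each gene in germ cells (left) and supporting cells (right) at each of the 3 stages in dpc, with bars of 1 SE. Filled symbols passed the test over all genes. Aldh1a1 is above 0 in supporting cells at all 3 stages, with 2.68, 1.64 and 1.02.

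The first oxidation, of retinol to retinal, is carried out by RDH10 (probe set 10344952). In XX germ cells Rdh10 stood at 7.62, 7.60 and 7.36 at 11.5 dpc, at 8.09 and 8.06 at 12.5 dpc, and at 9.22, 8.97 and 9.11 at 13.5 dpc. Each stage thus lay above the one before it, without overlap between arrays as deposited. With the row sets aligned, the arrays at 11.5 dpc (7.492 to 7.604) and 12.5 dpc (7.599 to 8.026) overlapped slightly. The difference of 13.5 minus 11.5 dpc was 1.57 in XX germ cells (SE 0.21, adjusted p = 7.6e-08) and 0.47 in XY germ cells (SE 0.21, adjusted p = 0.21). XY germ cells at 13.5 dpc, with 8.04, 8.50 and 8.52, lay below all 3 XX arrays, a difference of -0.75 (SE 0.21, adjusted p = 0.012). That call was lost without XY replicate 1 (adjusted p = 0.065) and when only the 2 groups were fitted (adjusted p = 0.053).

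In supporting cells Rdh10 differed by sex after 11.5 dpc. XY supporting cells stood at 7.28, 7.61 and 7.00 at 12.5 dpc and at 8.00, 7.53 and 7.48 at 13.5 dpc. XX supporting cells stood at 8.78, 8.36 and 8.81 at 12.5 dpc and at 8.86, 8.92 and 9.12 at 13.5 dpc. The groups did not overlap at either stage, and XY was lower than XX by -1.35 (SE 0.21, adjusted p = 1e-06) and -1.30 (SE 0.21, adjusted p = 2.6e-06). At 11.5 dpc the difference was -0.37 (adjusted p = 0.66), with 7.56 to 7.86 in XY and 7.84 to 8.39 in XX supporting cells. XX supporting cells rose by 0.84 between 11.5 and 13.5 dpc (SE 0.21, adjusted p = 0.006), a call lost without XX replicate 2 at 11.5 dpc (adjusted p = 0.093) or replicate 3 at 13.5 dpc (adjusted p = 0.053). The change of the sex difference in supporting cells, -0.93 (SE 0.29, adjusted p = 0.057), passed with the row sets aligned (-0.85, adjusted p = 0.025) after quantile normalization (-1.11, adjusted p = 0.006), when only the groups compared were fitted (adjusted p = 0.027) and without any 1 of 3 arrays (XX replicate 1 or XY replicate 1 at 11.5 dpc, or XY replicate 1 at 13.5 dpc, adjusted p from 0.028 to 0.0495). Ordered by group mean, Rdh10 was highest in XX germ cells (9.10 ± 0.13) and XX supporting cells (8.97 ± 0.14, SD, n = 3 each) at 13.5 dpc, whose arrays overlapped. Only the step below these 2 groups had no overlap of arrays. XY supporting cells at 12.5 dpc were lowest (7.30 ± 0.30, SD, n = 3).

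DHRS3 (probe set 10510129) runs the same step backwards and reduces retinal to retinol. XY supporting cells stood at 9.39, 9.06 and 9.73 at 11.5 dpc, at 7.50, 6.92 and 8.08 at 12.5 dpc, and at 6.63, 7.17 and 6.89 at 13.5 dpc. XX supporting cells stood at 10.73, 10.24 and 10.47, at 10.07, 10.03 and 9.93, and at 10.59, 10.42 and 10.35 at the same stages. Every XY array was below every XX array at each stage, and the gap widened with stage. XY minus XX was -1.09 at 11.5 dpc (SE 0.26, adjusted p = 0.0052), -2.51 at 12.5 dpc (SE 0.26, adjusted p = 3.4e-11) and -3.56 at 13.5 dpc (SE 0.26, adjusted p = 3.3e-16). The last difference is 11.8-fold lower in XY cells. The change of the sex difference between 11.5 and 13.5 dpc was itself past the test, at -2.47 (SE 0.36, adjusted p = 2.1e-06), with a background of 4.26% of genes.

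Dhrs3 fell by 2.49 in XY supporting cells between 11.5 and 13.5 dpc (SE 0.26, adjusted p = 1.1e-10), while the difference in XX supporting cells was -0.02 (SE 0.26, adjusted p = 1). In the order of group means, XX supporting cells at 11.5, 13.5 and 12.5 dpc and XY supporting cells at 11.5 dpc came first, with 10.48 ± 0.24, 10.45 ± 0.12, 10.01 ± 0.07 and 9.39 ± 0.33 (SD, n = 3 each). Only the first pair of these overlapped. By 13.5 dpc XY supporting cells (6.90 ± 0.27, SD, n = 3) stood within the range of the germ cell arrays, which lay between 6.33 and 7.85 with no sex difference past the test. With the row sets aligned, XY minus XX in germ cells at 13.5 dpc passed at -0.60 (adjusted p = 0.032). At 11.5 dpc both sexes carried the same Sry-EGFP reporter and strain, and that call alone was lost without XX replicate 1 (adjusted p = 0.054) or XY replicate 2 (adjusted p = 0.064). The stromal marker Nr2f2 also stood lower in XY supporting cells at 11.5 dpc, at 8.18 to 8.59, against 9.41 to 9.63 in XX supporting cells. Over the whole list of 6 stromal markers the medians at 11.5 dpc were 7.21 to 7.34 in XY and 7.20 to 7.34 in XX supporting cells, and at the later stages, given above, XY medians lay above XX medians. The part of stromal cells in the Dhrs3 difference was not tested.

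The second oxidation, of retinal to retinoic acid, is shared by ALDH1A1, ALDH1A2 and ALDH1A3. Aldh1a1 (probe set 10461979) had the widest span of the 10 genes. XY supporting cells stood at 9.96, 10.26 and 10.27 at 11.5 dpc, at 10.88, 11.42 and 11.38 at 12.5 dpc, and at 11.68, 11.33 and 11.38 at 13.5 dpc. XX supporting cells stood at 7.44, 7.48 and 7.55, at 10.03, 9.27 and 9.46, and at 10.54, 10.41 and 10.39 at the same stages. XY arrays were above XX arrays at every stage, and the gap narrowed as the XX level rose. XY minus XX was 2.68 at 11.5 dpc (SE 0.22, adjusted p = 3.8e-13), 1.64 at 12.5 dpc (SE 0.22, adjusted p = 8.8e-08) and 1.02 at 13.5 dpc (SE 0.22, adjusted p = 0.00062). At 11.5 dpc this is 6.39-fold, in cells of the same reporter and strain.

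Aldh1a1 rose by 2.95 in XX supporting cells between 11.5 and 13.5 dpc (SE 0.22, adjusted p = 1.2e-14) and by 1.30 in XY supporting cells (SE 0.22, adjusted p = 2.5e-05). The change of the sex difference was -1.66 (SE 0.32, adjusted p = 0.00025). In germ cells, where the sexes moved apart, it was 1.60 (SE 0.32, adjusted p = 0.00097), with a background of 3.24% of genes. XY germ cells stood at 6.39, 5.85 and 5.96 at 11.5 dpc, at 7.14, 7.15 and 7.78 at 12.5 dpc, and at 7.63, 8.44 and 7.95 at 13.5 dpc. In XX germ cells the arrays stood at 5.97, 5.86 and 5.85, at 5.44 and 6.17, and at 6.05, 6.65 and 6.00. Except for the array at 6.65, these values lay below the lowest array median of 6.54, as did those of XY germ cells at 11.5 dpc. The files give no detection call, so the size of differences from these groups is uncertain. The sexes overlapped at 11.5 dpc and were apart at 12.5 dpc (1.55, SE 0.25, adjusted p = 5.8e-05) and 13.5 dpc (1.77, SE 0.22, adjusted p = 5.2e-08). With the left-out array kept, the difference at 12.5 dpc was 0.58 (adjusted p = 0.45). By group mean, XY supporting cells at 13.5 dpc (11.46 ± 0.19) and 12.5 dpc (11.23 ± 0.30) overlapped and stood above XX supporting cells at 13.5 dpc (10.45 ± 0.08, SD, n = 3 each). XY supporting cells at 11.5 dpc (10.17 ± 0.18) overlapped with XX supporting cells at 12.5 dpc (9.59 ± 0.40, SD, n = 3 each), and all germ cell groups came below these.

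Because Aldh1a1 is abundant in XY supporting cells, Sertoli cell markers were read in the same arrays. The median of 4 Sertoli markers was 6.47 to 6.86 in XY germ cells at 13.5 dpc, 6.51 to 6.82 in XX germ cells at 13.5 dpc and 10.22 to 10.29 in XY supporting cells at 13.5 dpc. At 12.5 dpc it was 6.49 to 6.83 in XY germ cells and 6.38 to 6.41 in XX germ cells. Amh, the hormone that defines fetal Sertoli cells, averaged 6.18 ± 0.30 in XY germ cells and 6.03 ± 0.29 in XX germ cells at 13.5 dpc (SD, n = 3 each), against 9.84 ± 0.17 in XY supporting cells. The Sertoli medians of XY and XX germ cells thus overlapped at 13.5 dpc and did not at 12.5 dpc, and their part in the Aldh1a1 difference was not tested.

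Aldh1a2 (probe set 10586865), which makes most retinoic acid of the early mouse embryo, ran the other way in supporting cells. XY supporting cells stood at 8.20, 8.16 and 7.69 at 11.5 dpc, at 9.40, 8.42 and 8.96 at 12.5 dpc, and at 8.23, 8.33 and 8.62 at 13.5 dpc. XX supporting cells stood at 8.27, 8.10 and 8.53, at 9.98, 10.39 and 9.74, and at 10.28, 10.04 and 9.93. The sexes overlapped at 11.5 dpc (-0.28, SE 0.22, adjusted p = 1) and no longer at the later stages. XY minus XX was -1.11 at 12.5 dpc (SE 0.22, adjusted p = 9.3e-05) and -1.69 at 13.5 dpc (SE 0.22, adjusted p = 1.7e-08), and the change of the difference was -1.41 (SE 0.30, adjusted p = 0.0016). XX supporting cells rose by 1.78 (SE 0.22, adjusted p = 1.7e-08), while the difference with stage in XY supporting cells was 0.38 (adjusted p = 0.4). XX supporting cells at 13.5 and 12.5 dpc (10.08 ± 0.18 and 10.04 ± 0.33, SD, n = 3 each) were above all other groups with no overlap, and below them each group overlapped with the next in order.

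In germ cells Aldh1a2 showed the opposite sign at 13.5 dpc. XY germ cells stood at 7.54, 7.91 and 7.84, against 7.21, 6.69 and 7.07 in XX germ cells, with no overlap and a difference of 0.77 (SE 0.22, adjusted p = 0.013). The call was lost without XX replicate 2 (adjusted p = 0.12), XY replicate 2 (adjusted p = 0.073) or XY replicate 3 (adjusted p = 0.057). The difference with stage was -0.58 in XX germ cells (adjusted p = 0.06) and 0.62 in XY germ cells (adjusted p = 0.069), neither past the test. Both passed after quantile normalization, at -0.53 and 0.67 (adjusted p = 0.043 and 0.017), the XY one also with the row sets aligned (0.69, adjusted p = 0.011) and the XX one without XX replicate 1 at 13.5 dpc (-0.69, adjusted p = 0.035). The change of the sex difference in germ cells, 1.20 (SE 0.30, adjusted p = 0.014), was lost without XX replicate 2 at 13.5 dpc (adjusted p = 0.067). Those 13.5 dpc arrays enter both the sex and the stage comparison.

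Aldh1a3 (probe set 10564417), the remaining enzyme of this step, stayed between 6.09 and 7.15 in all 35 arrays. Its lowest group mean was 6.27 in XX germ cells and its highest 6.85 in XX supporting cells, both at 13.5 dpc, and every group overlapped with the next in order. None of its 6 sex differences and 4 stage differences passed the test. At 13.5 dpc all XY supporting cell arrays, 6.19 to 6.63, lay below the XX arrays, 6.68 to 7.15, as they did for 18.4% of all genes. The difference was -0.43 (SE 0.20, adjusted p = 0.18). That difference passed once the row sets were aligned, at -0.34 (adjusted p = 0.0048), as did the stage difference of XY supporting cells (-0.27, adjusted p = 0.031).

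Breakdown is the task of the CYP26 enzymes. Cyp26b1 (probe set 10545771) stood at 8.35, 7.71 and 7.83 in XY supporting cells at 11.5 dpc, at 8.91, 8.02 and 9.00 at 12.5 dpc, and at 8.05, 7.79 and 8.16 at 13.5 dpc. XX supporting cells stood at 7.30, 7.52 and 7.30, at 6.77, 6.93 and 6.64, and at 6.68, 6.77 and 6.59. Each XY array was above each XX array of its stage, as was the case for 6.25%, 13.1% and 17.8% of all genes at the 3 stages. The difference was 0.59 at 11.5 dpc (SE 0.22, adjusted p = 0.17), 1.86 at 12.5 dpc (SE 0.22, adjusted p = 1.5e-09) and 1.32 at 13.5 dpc (SE 0.22, adjusted p = 5.1e-06). At 11.5 dpc it passed with the row sets aligned (0.66, adjusted p = 0.0067) and after quantile normalization (0.71, adjusted p = 0.023).

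XX supporting cells at 11.5 dpc (7.37 ± 0.12, SD, n = 3) were the next group below the XY supporting cells and did not overlap with their neighbours. The stage difference in XX supporting cells, -0.69 (SE 0.22, adjusted p = 0.057), missed the test as deposited and passed with the row sets aligned (-0.66, adjusted p = 0.0052), after quantile normalization (-0.72, adjusted p = 0.017) and when only the groups compared were fitted (adjusted p = 0.0063). In XY supporting cells the stage difference was 0.04 (SE 0.22, adjusted p = 1). Germ cells of both sexes lay between 6.23 and 7.24 without a difference past the test.

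Binding in the cytoplasm falls to CRABP1, which holds retinoic acid and passes it to breakdown, and CRABP2, which carries it to receptors in the nucleus. Crabp1 (probe set 10585438) stood at 11.63, 10.35 and 11.49 in XY germ cells at 11.5 dpc, at 9.72, 10.38 and 10.24 at 12.5 dpc, and at 9.19, 9.91 and 9.79 at 13.5 dpc. XX germ cells stood at 11.04, 10.91 and 10.75, at 11.30 and 11.48, and at 11.36, 11.86 and 11.48. The sexes overlapped at 11.5 dpc and were apart at both later stages. XY minus XX was -1.28 at 12.5 dpc (SE 0.30, adjusted p = 0.01) and -1.93 at 13.5 dpc (SE 0.26, adjusted p = 3.7e-07). The 12.5 dpc call was lost without XX replicate 2 (adjusted p = 0.23, with a lone XX array assumed to vary like other groups), without XY replicate 1 (adjusted p = 0.078) and with the left-out array kept (-0.98, adjusted p = 0.055).

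Crabp1 fell by 1.53 in XY germ cells between 11.5 and 13.5 dpc (SE 0.26, adjusted p = 3.9e-05), while the difference in XX germ cells was 0.67 (SE 0.26, adjusted p = 0.082). The XX difference passed after quantile normalization (0.81, adjusted p = 0.022) and when only the groups compared were fitted (adjusted p = 0.035). The change of the sex difference was -2.19 (SE 0.37, adjusted p = 0.00013), the farthest from 0 of the 10 genes in germ cells. XY supporting cells also fell by 1.07 (SE 0.26, adjusted p = 0.0044), with 8.27, 7.68 and 7.95 at 13.5 dpc and 8.49, 9.16 and 9.44 at 11.5 dpc. That call was lost without XY replicate 3 at 11.5 dpc (adjusted p = 0.061). No sex difference in supporting cells passed, where group means lay between 7.97 and 9.03. The 4 highest groups were XX germ cells at 13.5 and 12.5 dpc, then XY and XX germ cells at 11.5 dpc. Neighbours in this order overlapped. XX germ cells at 11.5 dpc, with 10.75 to 11.04, lay below all XX germ cell arrays of the later stages.

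Crabp2 (probe set 10493108) stood at 9.02, 9.00 and 9.15 in XX germ cells at 11.5 dpc, at 9.81 and 10.19 at 12.5 dpc, and at 10.32, 10.78 and 10.14 at 13.5 dpc. XY germ cells stood at 9.23, 8.85 and 9.04, at 8.21, 9.10 and 8.82, and at 9.64, 9.73 and 9.78. XX germ cells rose by 1.36 between 11.5 and 13.5 dpc (SE 0.27, adjusted p = 0.00014), and XY germ cells differed by 0.68 (SE 0.27, adjusted p = 0.14), which passed with the row sets aligned (0.76, adjusted p = 0.039). XY was below XX without overlap at both later stages, as it was for 12.1% and 7.69% of all genes. The difference was -1.29 at 12.5 dpc (SE 0.30, adjusted p = 0.0097) and, not past the test, -0.70 at 13.5 dpc (SE 0.27, adjusted p = 0.097). The 12.5 dpc call was lost without XX replicate 2 (adjusted p = 0.33) or XY replicate 1 (adjusted p = 0.091) and held with the left-out array kept (-1.41, adjusted p = 0.0039). The stromal medians given above also differed between these XY and XX arrays, and their part in the Crabp1 and Crabp2 differences was not tested.

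Averaged over the stages, Crabp2 was lower in supporting cells than in germ cells of each sex. XX supporting cells at 12.5 and 11.5 dpc (8.98 and 8.79) nevertheless averaged above XY germ cells at 12.5 dpc (8.71). Single arrays decided the Crabp2 calls in supporting cells. At 12.5 dpc XY supporting cells stood at 8.09, 8.44 and 8.00, against 9.53, 8.97 and 8.43 in XX supporting cells (-0.80, SE 0.27, adjusted p = 0.034). The arrays overlapped slightly, and the call was lost with the row sets aligned (-0.61, adjusted p = 0.07), with the left-out array kept (adjusted p = 0.071) and without XX replicate 1 (-0.53, adjusted p = 0.32), XX replicate 2 (adjusted p = 0.075), XY replicate 1 (adjusted p = 0.12) or XY replicate 3 (adjusted p = 0.13). XX supporting cells at 13.5 dpc, with 8.36, 7.16 and 8.21, were lower by -0.89 than at 11.5 dpc, with 8.73, 8.95 and 8.70 (SE 0.27, adjusted p = 0.043). Without the array at 7.16 the difference was -0.51 (adjusted p = 0.65), and the call was also lost without any 1 of the 11.5 dpc arrays (adjusted p from 0.082 to 0.19), with the left-out array kept (adjusted p = 0.11) and when only the 2 groups were fitted (adjusted p = 0.11).

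Rarb and Cyp26a1 are the members best known as direct targets of retinoic acid. Their promoters are shown for the response element that textbooks place there, a pair of hexamers in the same direction with 5 bases between them. The hexamer searched was AGGTCA, or its form with G in front, GGGTCA, or the other form AGTTCA, or that form with G in front, GGTTCA. Both strands were read, from 250 bases before to 50 after each start, in RefSeq windows of build GRCm38.p6. Windows were at hand for 7 of the 10 genes, 10 windows in all. Only those of Rarb and Cyp26a1 held such a repeat, which 0.0974% of 32851 promoters held. Repeats spaced by 1 or 2 bases, held by 0.222% and 0.268% of promoters, were found in none of the 10 windows. Any 1 of the hexamers was in 43.7% of promoters, and in Aldh1a1 a second window held GGGTCA. The 2 repeats follow in 30 bases each, 5′ to 3′ on the strand that spells the hexamers forward, with hexamers in capitals.
Rarb, chr14:16575506-16575535, minus strand: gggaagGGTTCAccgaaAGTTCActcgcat
Cyp26a1, chr19:37697769-37697798, minus strand: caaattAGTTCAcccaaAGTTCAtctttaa

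The Rarb repeat begins 53 bases and the Cyp26a1 repeat 32 bases before the start used. For both genes the start used and the repeat lie inside the annotated gene. Rarb is annotated at chr14:16430839-17082331 and Cyp26a1 at chr19:37697738-37701536. Rarb also held a single GGGTCA farther upstream, as its 250 bases before the start show (chr14:16575477-16575726, minus strand, hexamers in capitals).
Rarb: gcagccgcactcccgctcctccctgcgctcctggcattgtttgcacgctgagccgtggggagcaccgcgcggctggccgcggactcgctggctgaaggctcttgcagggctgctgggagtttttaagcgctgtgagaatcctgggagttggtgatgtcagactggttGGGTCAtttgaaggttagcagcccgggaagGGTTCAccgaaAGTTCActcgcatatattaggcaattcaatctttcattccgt

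Neither of these target genes passed the test by sex or stage. Rarb (probe set 10417713), a nuclear receptor for retinoic acid, lay between 5.73 and 6.78 in the 35 arrays. Its group means ran between 6.07 in XY supporting cells and 6.50 in XX germ cells, both at 12.5 dpc, and every group overlapped with the next in order. Cyp26a1 (probe set 10462853), the other CYP26 enzyme of the set, lay between 5.15 and 5.91, with group means between 5.22 in XX germ cells and 5.74 in XY supporting cells at 12.5 dpc. All Cyp26a1 values and all Rarb group means lay below the lowest array median of 6.54, and the files give no detection call. None of the sex, stage and cell type comparisons of either gene passed the test as deposited. For Rarb, germ minus supporting cells of XX gonads was 0.28 (SE 0.13, adjusted p = 0.076) and passed with the row sets aligned (0.38, adjusted p = 0.00016). It also passed with the left-out array kept (0.36, adjusted p = 0.028) and without XX supporting replicate 2 at 12.5 dpc (adjusted p = 0.031) or replicate 1 at 13.5 dpc (adjusted p = 0.032).

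In the same arrays Stra8, the meiosis gene induced by retinoic acid, stood at 5.21, 4.91 and 5.34 in XX germ cells at 11.5 dpc, at 8.05 and 6.87 at 12.5 dpc, and at 10.37, 10.04 and 10.19 at 13.5 dpc. XY germ cells stayed between 5.11 and 5.84 over the 3 stages. XY minus XX was -1.76 at 12.5 dpc (SE 0.24, adjusted p = 1.7e-06) and -4.64 at 13.5 dpc (SE 0.21, adjusted p = 6.1e-23). With the left-out array kept the 12.5 dpc difference was -0.95 and did not pass (adjusted p = 0.11). Over 11.5 to 13.5 dpc in XX germ cells, Rarb differed by -0.11 (SE 0.21, adjusted p = 0.71) and Cyp26a1 by 0.34 (SE 0.19, adjusted p = 0.24). Stra8 differed by 5.05 (SE 0.21, adjusted p = 4.2e-24). With Rarb and Cyp26a1 at low levels and no detection call, these values cannot show whether either gene responded to retinoic acid.

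**Figure D3:**
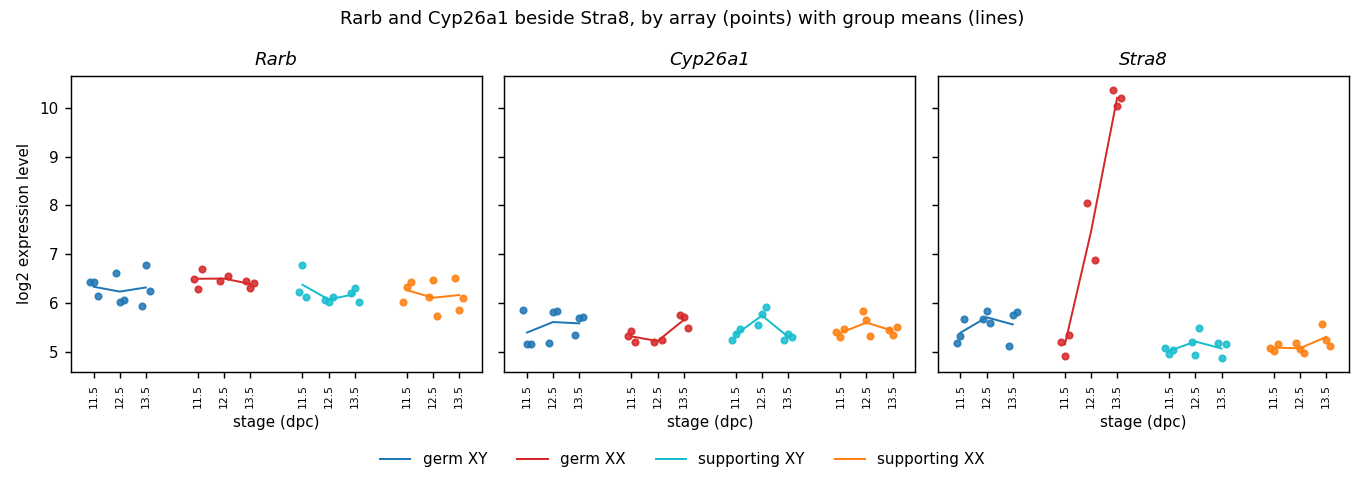
Log2 expression level (vertical axis, shared) of Rarb, Cyp26a1 and Stra8 by stage in dpc for XY and XX germ cells and XY and XX supporting cells. Points are arrays and lines join group means. Stra8 reaches 10.04 to 10.37 in XX germ cells at 13.5 dpc, while Rarb and Cyp26a1 stay below 7 in every array.

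Read by stage, 13.5 against 11.5 dpc, the counts among the 10 genes were close to or above those of all genes. In XX germ cells Rdh10 and Crabp2, 2 of the 10, passed beside 15.3% of all genes, a share near the background. In XY germ cells 2 of the 10 passed beside 7.09%, in XX supporting cells 4 of the 10 beside 4.1%, and in XY supporting cells 3 of the 10 beside 8.87%. Aldh1a1 was the only one of the 10 that rose in 3 of the 4 series, XY germ cells (1.94, SE 0.22, adjusted p = 5.6e-09), XY supporting cells and XX supporting cells. In XX germ cells, where its levels were low as given above, it differed by 0.34 (adjusted p = 0.3). The plot of stage differences places these beside each other. These comparisons share their 13.5 dpc arrays with the sex comparisons at 13.5 dpc, so the values are not independent of those above.

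**Figure D4:**
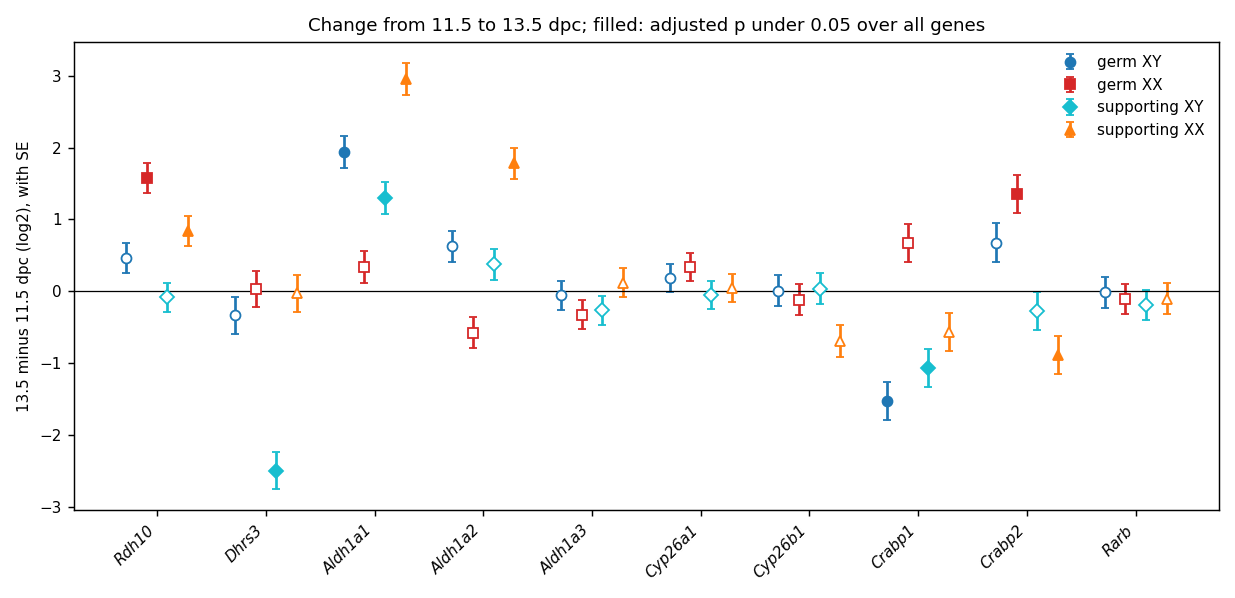
Difference of 13.5 minus 11.5 dpc in log2 (vertical axis) of each gene in XY and XX germ cells and XY and XX supporting cells, with bars of 1 SE. Filled symbols passed the test over all genes. Dhrs3 lies at -2.49 in XY supporting cells and at -0.02 in XX supporting cells.

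Between the cell types, averaged over the stages, 7 of the 10 genes differed in XX gonads, beside 38.1% of all genes, and 7 of the 10 in XY gonads, beside 41.7%. Reporter and strain also differ between the cell types and cannot be told apart from them. Germ cells had more Crabp1 than supporting cells, by 2.99 in XX (SE 0.16, adjusted p = 2.6e-22) and 1.90 in XY gonads (SE 0.15, adjusted p = 2e-15). Crabp2 was also higher in germ cells, by 1.26 in XX (adjusted p = 2.4e-09) and 0.85 in XY gonads (adjusted p = 6.9e-06). Germ cells had less Aldh1a1 by -3.20 in XX (SE 0.13, adjusted p = 1.7e-26) and -3.81 in XY gonads (SE 0.13, adjusted p = 2.5e-30), and less Aldh1a2 by -2.16 and -1.10 (adjusted p = 2.7e-20 and 9.2e-11). For Dhrs3 the germ minus supporting difference was -3.15 in XX gonads (SE 0.15, adjusted p = 7.9e-24) and -0.94 in XY gonads (SE 0.15, adjusted p = 3.7e-07).

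Rdh10 had opposite signs in the 2 sexes, -0.34 in XX (SE 0.12, adjusted p = 0.022) and 0.55 in XY gonads (SE 0.12, adjusted p = 0.00011). Cyp26b1 was lower in germ cells of XY gonads (-1.36, SE 0.12, adjusted p = 1.8e-13), with -0.26 in XX gonads (adjusted p = 0.11). The XX difference passed with the row sets aligned (-0.31, adjusted p = 0.0074), after quantile normalization (-0.30, adjusted p = 0.036) and, narrowly, when only XX groups were fitted (adjusted p = 0.0499). In XX gonads Aldh1a3 passed at -0.31 (SE 0.12, adjusted p = 0.034), a call lost without 11 of the 17 XX arrays in turn (adjusted p from 0.056 to 0.097). With the left-out array kept, the XX differences of Rdh10 and Aldh1a3 were -0.25 (adjusted p = 0.14) and -0.27 (adjusted p = 0.065), and without XX supporting replicate 1 at 11.5 dpc that of Rdh10 was -0.30 (adjusted p = 0.063). The other 5 XX differences past the test passed with the array kept.

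Of 38 further genes of the pathway, listed by role, 36 were measured. In XY against XX supporting cells 4 of the 36 passed at 11.5 dpc (2 higher and 2 lower), beside 3.32% of all genes. At 12.5 dpc 10 passed (4 higher and 6 lower), beside 13.4%, and at 13.5 dpc 6 (4 higher and 2 lower), a share near the 12.2% of all genes. The alcohol dehydrogenase gene Adh1, whose enzyme oxidises retinol among other alcohols, was higher in XY supporting cells at all 3 stages, by 2.43 (SE 0.25, adjusted p = 3.9e-10), 3.13 (SE 0.25, adjusted p = 1.5e-14) and 3.39 (SE 0.25, adjusted p = 8.7e-16). Its arrays stood at 10.11 to 11.17 in XY supporting cells and at 7.08 to 8.23 in XX supporting cells. Fabp5, a fatty acid binding protein that can also carry retinoic acid, was higher in XY supporting cells by 0.86, 2.28 and 2.89 (adjusted p = 0.015, 1.1e-11 and 4.1e-15). Lower in XY supporting cells was Rec8, a meiotic cohesin, by -1.41 at 12.5 dpc and -1.59 at 13.5 dpc (adjusted p = 4.3e-06 and 3.8e-07). The germ cell median reached 6.63 and 6.60 in XX supporting cell arrays at these stages, against 5.57 and 5.81 in XY arrays. The XX and XY ranges overlapped, and the part of germ cells in the Rec8 difference was not tested. Also lower was the orphan receptor Nr2f2, by -1.13 at 11.5 dpc and -1.54 at 12.5 dpc (adjusted p = 0.0056 and 1.6e-05). With the left-out array kept the 11.5 dpc calls of Nr2f2 and Fabp5 were lost (adjusted p = 0.37 and 0.2). Of the 10 listed targets of retinoic acid, 2, 5 and 2 were lower in XY supporting cells at the 3 stages, beside 1.71%, 4.89% and 5.02% of all genes that were lower, and 0 were higher.

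In XY against XX germ cells 0 of the 36 passed at 11.5 dpc, beside 0.0251% of all genes, and 4 at 12.5 dpc, all lower, beside 1.8%. At 13.5 dpc 5 passed (2 higher and 3 lower), a share near the 9.21% of all genes. Stra8 was among them at both later stages. Rec8 was lower in XY germ cells by -1.12 at 12.5 dpc (SE 0.26, adjusted p = 0.0097, or -0.91 and 0.033 with the left-out array kept) and -2.40 at 13.5 dpc (SE 0.23, adjusted p = 2.8e-11). At 13.5 dpc Fabp5 was higher in XY germ cells by 1.11 (SE 0.22, adjusted p = 0.00038) and Lrat, which stores retinol as ester, lower by -0.93 (SE 0.22, adjusted p = 0.0024). By stage, 10 of the 36 passed in XX germ cells, of which 4 were higher and 6 lower at 13.5 dpc, beside 15.3% of all genes. In XY germ cells 4 passed, all lower, beside 7.09%. In XX supporting cells 4 passed (1 higher and 3 lower), beside 4.1%, and in XY supporting cells 5 (2 higher and 3 lower), beside 8.87%. Fabp5 fell in germ cells between 11.5 and 13.5 dpc, by 1.73 in XX (adjusted p = 6.2e-08) and 0.92 in XY (adjusted p = 0.0043, lost at 0.073 with the left-out array kept), and was higher at 13.5 dpc in XY supporting cells by 2.24 (adjusted p = 4.6e-11). Nr2f1, an orphan receptor, fell in supporting cells of both sexes, by 1.22 in XY (adjusted p = 0.00012) and 2.02 in XX (adjusted p = 3.9e-09).

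For each member, the genes of most similar pattern were sought among 7386 genes whose group means spanned at least 1 on the log2 scale, by Pearson's r over the 12 group means. The values describe these groups only, since all points share the same arrays and the split into germ and supporting cells. The closest were Gatm for Aldh1a1 (r = 0.993), E330013P04Rik for Dhrs3 (0.987), Olfml3 for Cyp26b1 (0.983), Myo1a for Aldh1a2 (0.973), Xlr for Crabp1 (0.967), Mir465 for Crabp2 (0.963) and Pbx3 for Rdh10 (0.935). The 3 genes of narrow span had weaker closest matches, Insig1 for Rarb (0.900), Lratd2 for Aldh1a3 (0.898) and Zbtb12 for Cyp26a1 (0.813). Next in order came Sft2d2 and Tnik for Aldh1a1, Slc7a2 and Tmem171 for Dhrs3, Prss12 and Pcsk5 for Cyp26b1, and Phf19 and 3830403N18Rik for Crabp1.

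The row sets moved the members' levels by up to 0.74 in a single array, for Crabp1, and by medians of 0.10 to 0.14 over the 35 arrays. Of 140 differences, 10 genes in 14 comparisons, 128 kept their direction and side of the threshold once the sets were aligned, 10 came to pass, 1 no longer passed and 1 turned its sign. Keeping the array that went against its label widened the spread shared by all comparisons, and ended 15 calls. Of XY against XX supporting cells, Dhrs3 at 11.5 dpc (adjusted p = 0.21), Aldh1a2 at 12.5 dpc (adjusted p = 0.12) and Aldh1a1 at 13.5 dpc (adjusted p = 0.12) were lost, with the differences themselves as given above. Both Crabp2 calls in supporting cells were lost, as given above, as were those of Aldh1a1 and Crabp1 in germ cells at 12.5 dpc and of Rdh10 and Aldh1a3 between the cell types of XX gonads. The changes of the sex difference with stage that were lost were those of Rdh10, Aldh1a1 and Aldh1a2 in germ cells (adjusted p = 0.069, 0.19 and 0.52) and of Aldh1a1 and Aldh1a2 in supporting cells (adjusted p = 0.14 and 0.4). Aldh1a2 in germ cells at 13.5 dpc was lost as well (adjusted p = 0.4). The plot of aligned against deposited differences shows that the large ones stayed near the line of equal values.

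**Figure D5:**
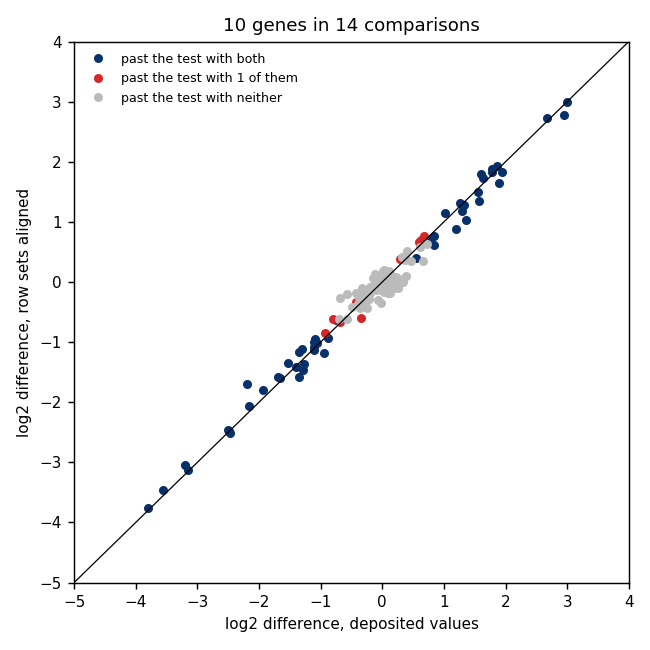
Log2 differences of the 10 genes in 14 comparisons with the row sets aligned (vertical axis) against the same differences in the deposited values (horizontal axis). The line marks equal values and colour marks whether the test was passed with both, 1 or neither of them. Points that changed their call lie within 1 of 0.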

How the data were processed

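RNA of cells sorted from fetal mouse gonads was measured on 36 arrays of the type Affymetrix Mouse Gene 1.0 ST. The deposited table gives 35557 probe sets as log2 expression levels. Its tool was RMA, which the submitters' processing notes name without a version. RMA subtracts background, brings arrays to 1 distribution and combines probes into sets. Array medians over all deposited probe sets nevertheless lay between 6.40 and 6.83, so the deposited values were not on 1 distribution. A platform annotation gave 21789 probe sets 1 symbol, and the set with the highest mean stood for each of 19938 genes. The row sets within arrays are described by no label. The alternative divided each set by its slope (1.0099 to 1.059) and moved all sets to 1 median.

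limma 3.58.1 in R 4.3.3 fitted 12 group means to 35 arrays with 23 residual degrees of freedom and empirical Bayes moderation. Its 14 contrasts were adjusted by Benjamini-Hochberg over all genes, and an adjusted p under 0.05 counted as past the test. All tests were two-sided. Other figures used Python 3.11.15, numpy 2.4.6, pandas 2.3.3 and matplotlib 3.10.9. The script was tested on simulated data. Alternatives were the left-out array kept, row sets aligned, quantile normalization, genes under the 25th percentile of mean level left out, the mean of a gene's probe sets, the replicate number as a block, a fit of only the groups compared, and each array left out in turn.

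The members, the further pathway genes and the marker lists were chosen with earlier results of these data known. Named were all 10 members, of the further pathway genes at most 4 per comparison by lowest adjusted p plus Stra8, and for each member up to 3 genes of highest r. Marker genes are named where a value bears on a result. Slides and scan dates are not given in the sources used here, and the fit has no batch term. In the deposited values same-numbered XX and XY arrays mostly did not deviate together, and the replicate numbers were not taken as pairs. This check was not repeated with the row sets aligned and does not exclude pairing. Correlations between arrays of a group were 0.967 to 0.995, and 0.902 at most for the array left out.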

Additional observations from a re-analysis of the deposited data

Results flagged for a closer look

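Between 11.5 and 13.5 dpc the sex difference, XY minus XX, changed past limma's test of that change for 4 genes in germ cells and 3 in supporting cells. In germ cells it was -1.11 for Rdh10, 1.60 for Aldh1a1, 1.20 for Aldh1a2 and -2.19 for Crabp1 (adjusted p = 0.019, 0.00097, 0.014 and 0.00013), beside 3.24% of all genes past the test. In supporting cells it was -2.47 for Dhrs3, -1.66 for Aldh1a1 and -1.41 for Aldh1a2 (adjusted p = 2.1e-06, 0.00025 and 0.0016), beside 4.26% of all genes. For supporting cells the change cannot be told apart from the change of reporter and strain in XY gonads after 11.5 dpc. The call for Rdh10 in germ cells was lost without any 1 of 4 arrays: XX replicate 3, XY replicate 1 or XY replicate 3 at 11.5 dpc, or XY replicate 1 at 13.5 dpc (adjusted p from 0.062 to 0.078), and when only the groups compared were fitted (adjusted p = 0.051). That for Aldh1a2 in germ cells was lost without XX replicate 2 at 13.5 dpc (adjusted p = 0.067). With the left-out array kept, 5 of these 7 changes no longer passed, Crabp1 in germ cells and Dhrs3 in supporting cells being the other two.

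Aldh1a2 at 13.5 dpc drew attention because the sexes were apart in opposite directions in the cell types. All 3 XY germ cell arrays lay above the XX germ cell arrays, as they did for 6.68% of all genes. All 3 XY supporting cell arrays lay below the XX supporting cell arrays, as they did for 18.4% of all genes. The XY minus XX difference was 0.77 in germ cells and -1.69 in supporting cells, which are 2.46 apart, and this gap was not tested.

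The array left out of XX germ cells at 12.5 dpc held 4 of the 10 genes above every other germ cell array, as it did 19% of all genes. Dhrs3 stood at 9.80 there, against 7.85 in the highest other germ cell array, Aldh1a1 at 8.73 against 8.44, Aldh1a2 at 10.88 against 7.91 and Rarb at 7.20 against 6.78. The Aldh1a2 and Rarb levels were also above those of every supporting cell array, as 7.6% of all genes were. Nothing about the 10 genes is read from these shares.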

How the results depend on the processing

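Of the 140 differences of the 10 genes, 124 kept their direction and side of the threshold with the left-out array kept, 133 after quantile normalization, 133 when only the groups compared were fitted, 137 with the replicate block, 140 with the mean of probe sets and 126 of 126 with dim genes left out. That last filter removed 1 of the 10 genes, Cyp26a1. With the row sets aligned, Aldh1a3 in germ minus supporting cells of XY gonads, 0.00 as deposited, turned to -0.14 (adjusted p = 0.026), and the cause was not tested. The replicate block lost Rdh10 and Aldh1a3 in germ minus supporting cells of XX gonads (-0.42 and -0.37, adjusted p = 0.068 and 0.11) and Crabp2 in XY gonads (0.50, adjusted p = 0.065). Among 17 same-numbered XX and XY pairs in the deposited values, 1 deviated together by more than 0.1 (r from -0.52 to 0.13). The block rests on numbers alone, and pairing was not excluded.

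With the left-out array kept, the genes past the test of XY minus XX were 773 in germ cells at 12.5 dpc (1 of the 10) and 392 in supporting cells at 11.5 dpc (1 of the 10). They were 923 for the stages of XY germ cells, and for the change of the sex difference 281 in germ cells (1 of the 10) and 518 in supporting cells (1 of the 10). With the row sets aligned, XY minus XX called 20 and 3460 genes in germ cells at 11.5 and 13.5 dpc, and 1720, 5539 and 5120 in supporting cells at the 3 stages. The stage comparisons then called 2809 genes in XY germ cells (4 of the 10), 4364 in XY and 2110 in XX supporting cells, and the change of the sex difference 1526 in germ and 2333 in supporting cells. Quantile normalization called 752 genes in germ cells at 12.5 dpc and 4 of the 10 for the stages of XX germ cells. Fits of only the groups compared called 15 genes in germ cells at 11.5 dpc, 4273 in supporting cells at 13.5 dpc, 2753 for the stages of XY and 1297 of XX supporting cells, and 1688 for the change in supporting cells.

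Leaving out 1 array in turn, XY minus XX called 5 to 9, 92 to 316 and 1194 to 2759 genes in germ cells at the 3 stages (0, 1 to 3 and 3 to 4 of the 10). It called 466 to 631, 2057 to 2694 and 1885 to 2150 genes in supporting cells (1 to 2, 5 to 6 and 5 of the 10). The stages called 935 to 1393 genes in XY germ cells (2 of the 10), 2086 to 3940 in XX germ cells (2 to 3), 1139 to 1673 in XY supporting cells (2 to 3) and 616 to 679 in XX supporting cells (2 to 4). The change of the sex difference called 416 to 848 genes in germ cells (3 to 4). The lowest germ cell count at 12.5 dpc came without XX replicate 2.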
